A study of Danio rerio with 49 samples.

Results

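The comparison described here is the interaction of genotype and stage between Shield and Bud in zebrafish embryos that were homozygous for the omf201 allele of *rif1* or wild type (WT). For every genomic window it is the difference omf201 minus WT at Bud minus the difference omf201 minus WT at Shield, in units of the replication timing z-score. It drew on 19 of the 49 libraries of the series. The Bud omf201 group had 4 libraries of S-phase nuclei sorted by DNA content from embryos of the Tab5 strain homozygous for rif1 omf201, collected at 10 hours post fertilisation (hpf). The Bud WT group had 4 libraries of the same kind from Tab5 embryos without the allele. The Shield omf201 and Shield WT groups had 5 and 6 libraries of whole embryos of the same 2 genotypes, collected at 6 hpf and treated as S phase without sorting. At Shield, omf201 replicates 1 and 2, WT replicates 1 and 2, and WT replicates 3 and 4 were averaged in pairs, and the chi-square of their counts in 1-Mb bins, divided by its degrees of freedom, was 0.963, 1.07 and 0.992. The p-values of these tests were 0.831, 0.0425 and 0.581, while the other pairs of these groups differed more. The averaging left 16 samples, 4 per group. The labels do not state what omf201 changes in the gene. The step from Shield to Bud changed the stage and the kind of sample together, from whole embryos to sorted nuclei, and the effects of the 2 cannot be told apart.

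Rif1 is a conserved chromatin-bound protein that recruits protein phosphatase 1 to replication origins. There the phosphatase counters the kinase that activates the replicative helicase, which holds back origin firing in late-replicating domains. In animal embryos the first cell cycles are fast and have little difference between early and late sequence, and a timing programme with distinct early and late domains builds up as the cycles lengthen through gastrulation. Shield marks the onset of gastrulation in zebrafish and Bud its end. Early sequence has been copied in more of the S-phase nuclei and gives more reads, so the z-score goes up with earlier replication and down with later replication, within each library.

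The libraries held 5.09 to 12.7 M counts (M, mega; Bud omf201), 7.59 to 13.0 M (Bud WT), 9.38 to 26.5 M (Shield omf201) and 7.92 to 32.2 M (Shield WT) over windows that do not overlap. Counting error of a single window before smoothing was 3.72% to 5.89%, 3.69% to 4.82%, 2.58% to 4.34% and 2.34% to 4.72% in the same order of groups. These figures cover counting error alone, as the reads carried no molecular tags. Across windows each sample correlated with the mean of the rest of its group at 0.888 to 0.943 for Bud omf201 and 0.964 to 0.974 for Bud WT. The same correlation was 0.929 to 0.956 for Shield omf201 and 0.965 to 0.973 for Shield WT. The lowest value belonged to Bud omf201 replicate 3.

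The timing difference between omf201 and WT embryos changed from Shield to Bud in 30619 of 120059 windows, 25.5% of the genome measured, at an adjusted p under 0.05 in limma. In 15097 windows the interaction was higher (12.6%), so that omf201 replicated relatively earlier at Bud than its difference at Shield would give, and in 15522 it was lower (12.9%). The median size of the interaction was 0.896 z-score units in called windows, against 0.406 over all windows, with a median standard error of 0.248. Neighbouring windows overlap, and the calls formed 931 runs of adjacent windows with 1 sign, of which 455 were higher (median 330 kb) and 476 lower (median 340 kb). In edgeR's quasi-likelihood test on the unsmoothed counts the interaction was called in 4396 windows (3.66%, with 1.48% higher and 2.18% lower), of which 3508 were also called on z-scores. On log2 ratios centred on the median of each library, 67.3% of the interaction calls were higher, against 49.3% on z-scores. The balance between directions therefore depended on the centring.

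On z-scores the genotype difference itself was called in more windows at Bud than at Shield. At Bud it was called in 57929 windows (48.3%), 24.6% with omf201 earlier and 23.7% with omf201 later than WT. At Shield it was called in 31294 windows (26.1%), 13.4% earlier and 12.6% later. On the deposited log2 ratios, which keep the amplitude of each profile, the counts were 75953 at Bud and 51186 at Shield. In edgeR on counts they were 43258 and 34487 windows, while in edgeR on counts summed in 1-Mb bins the order turned round, with 577 of 1356 bins called at Bud and 848 at Shield. Among interaction windows the genotype estimates at Bud and at Shield had opposite signs in 67.8%, against 37.9% of all windows, as choosing windows by the difference of the 2 estimates favours.

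Interaction windows were sorted by the genotype calls at the 2 stages. A difference that appears was called at Bud and not at Shield, one that grows was called at both with the same sign and was larger at Bud, and one that reverses was called at both with opposite signs. A difference that shrinks was called at both with the same sign and was smaller at Bud, and one that is lost was called at Shield alone. These names rest on whether an estimate passed the threshold at each stage, while the interaction test is the test that the 2 estimates differ. On z-scores, windows where the difference appears were the largest class, with 19002 windows or 62.1% of the interaction calls. The lost class had 5726 (18.7%), the reversing class 2932 (9.58%), the growing class 946 (3.09%) and the shrinking class 230. The remaining 1783 windows had a called interaction and no called difference at either stage. The order of the classes depended on the test. In edgeR on counts summed in 1-Mb bins the growing class was the largest, with 152 bins, against 96 lost and 92 appearing.

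**Figure D1:**
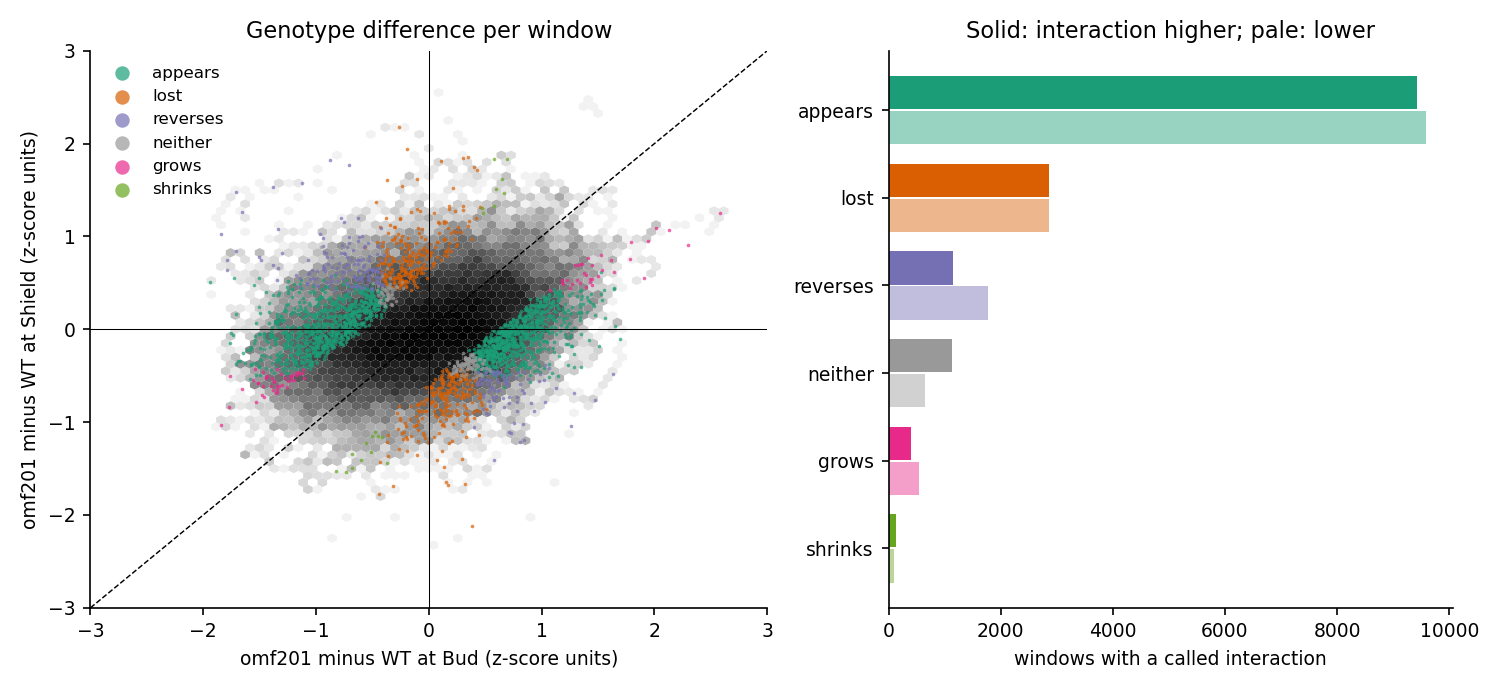
Left, the genotype difference omf201 minus WT of each window at Bud (x axis) against that at Shield (y axis), both in z-score units, with darker hexagons for more windows on a log scale, 1 in 12 interaction windows coloured by class and the dashed line marking equal differences. Right, the number of windows with a called interaction in each class, where differences that appear take 19002 of 30619 windows in near equal numbers of both signs.

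Where the mutant effect appears, the interaction was higher in 9423 windows (omf201 relatively earlier at Bud) and lower in 9579 (omf201 relatively later). In the windows of the first kind the median genotype difference was 0.771 at Bud and -0.109 at Shield, and the medians of the group means were 0.640 in Bud omf201, -0.189 in Bud WT, -0.687 in Shield omf201 and -0.599 in Shield WT. These medians were on the late side in both genotypes at Shield. In the windows of the second kind the median difference was -0.921 at Bud and 0.0424 at Shield. Their group medians were -0.275 in Bud omf201, 0.696 in Bud WT, 0.697 in Shield omf201 and 0.670 in Shield WT. The medians of the other 3 groups thus shared nearly the same early level there, and that of Bud omf201 was the late one. Single windows of WT moved both ways, as the WT step was called earlier in 16.5% and later in 18.7% of them. Over all windows the shares were 20.3% and 20.7%.

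The median step from Shield to Bud was larger in omf201 than in WT in both kinds of window. Where the effect appears with omf201 earlier, the median step was 1.14 in omf201 and 0.214 in WT. Where it appears with omf201 later, the median step was -0.994 in omf201 and -0.0422 in WT. On the deposited log2 ratios the medians were 0.10 in omf201 and 0.022 in WT for the first kind and -0.088 in omf201 and 0.014 in WT for the second. Over the whole genome the step on z-scores was called in 75873 windows in omf201 (63.2%, with 29.7% earlier and 33.5% later at Bud) and in 49209 windows in WT (41%, with 20.3% earlier and 20.7% later). The limma fit behind these calls shares 1 estimate of the spread between the 4 groups. On the same z-scores the samples of the stages did not overlap in 47.4% of windows in omf201 and 45.8% in WT. The excess of called steps in omf201 also depended on the scale. The step was called in 67789 windows in omf201 and 68049 in WT on the deposited log2 ratios, in 67205 and 69041 after centring them, and in 33040 and 40262 with edgeR on counts. In edgeR on 1-Mb bins it was called in 637 bins in omf201 and 835 in WT.

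By the step calls on z-scores, among all 15522 windows with a lower interaction omf201 moved later while the WT step was not called in 9873 (63.6%), and both genotypes moved later in 2718 (17.5%). WT alone moved earlier in 1561 (10.1%), and the genotypes moved in opposite directions in 1034 (6.66%). Among the 15097 windows with a higher interaction, omf201 moved earlier while the WT step was not called in 7344 (48.6%), both moved earlier in 4918 (32.6%) and WT alone moved later in 1831 (12.1%). The genotypes moved in opposite directions in 572 (3.79%). A step that was not called is not shown to be 0. The WT step was not called in 65.4% of windows with a lower and 50.9% of those with a higher interaction, against 59.0% of all windows. The interaction is also the omf201 step minus the WT step. Choosing windows by it favours steps of these directions, so the counts describe the windows and are not evidence that omf201 was the genotype that moved.

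Where the effect grows, 399 windows had omf201 earlier and 547 had omf201 later than WT at both stages. The median difference was 1.45 at Bud and 0.618 at Shield in windows with omf201 earlier. It was -1.37 at Bud and -0.541 at Shield in windows with omf201 later. The median WT level in these windows was -1.01 (Bud) and -0.854 (Shield) where omf201 was earlier and 0.772 (Bud) and 0.753 (Shield) where omf201 was later. On the deposited log2 ratios the growing class had 8127 windows, and with 1 G1 reference shared by both genotypes it had 2027. Leaving out any of the 4 Shield WT samples, or Shield omf201 replicate 4 or 5, brought it to between 416 and 537.

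Where the effect reverses, 1156 windows had omf201 earlier at Bud and later at Shield, and 1776 had it later at Bud and earlier at Shield. The median difference was 0.616 at Bud and -0.596 at Shield in windows of the first kind. It was -0.709 at Bud and 0.644 at Shield in windows of the second. The median step in omf201 was 1.42 in the first kind and -1.44 in the second, against medians of 0.0749 and 0.000772 in WT. The WT medians near 0 hold windows that went both ways. The WT step was called earlier in 318 and later in 185 windows of the first kind, and earlier in 331 and later in 214 of the second.

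Where the effect was lost, omf201 had been later than WT at Shield in 2861 windows and earlier in 2865. The median difference was 0.166 at Bud and -0.743 at Shield where omf201 had been later. It was -0.178 at Bud and 0.760 at Shield where it had been earlier. The omf201 medians moved by 0.913 and -0.948 towards the WT level, against median WT steps of -0.0275 and -0.0161. The WT step was called earlier in 556 (19.4%) and later in 541 (18.9%) windows where omf201 had been later. It was called earlier in 523 (18.3%) and later in 541 (18.9%) windows where omf201 had been earlier. These shares were close to those of all windows, 20.3% earlier and 20.7% later. With 1 G1 reference for both genotypes the median differences were 0.317 at Bud and -0.530 at Shield in the first kind and -0.341 and 0.529 in the second, so a smaller opposite difference stood at Bud. In the 230 windows where the effect shrinks, the median difference was -0.530 at Bud and -1.34 at Shield in 125 windows and 0.581 at Bud and 1.35 at Shield in 105. With the common reference these medians were -0.101 at Bud and -0.759 at Shield, and -0.0903 at Bud and 0.495 at Shield. The size of the difference at both stages thus depended on the reference, and so did its sign at Bud in the 105 windows. The shrinking class had between 132 and 143 windows without Bud WT replicate 1, 3 or 4.

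Libraries of 24 hpf S-phase nuclei, 4 of each genotype, took no part in the interaction and share only the G1 reference with it. At 24 hpf the genotype difference was called in 73.3% of all windows, 37.8% with omf201 earlier and 35.5% with omf201 later. Of the windows where the effect appears with omf201 earlier, 83.2% were called earlier and 3.39% later in omf201 at 24 hpf, with a median difference of 0.759. Of those where it appears with omf201 later, 87.1% were called later and 1.90% earlier, with a median of -0.965. Windows where the effect grows were called in the Bud direction in 93.7% (omf201 earlier) and 95.1% (omf201 later). Reversing windows were called in the Bud direction in 71.0% and 77.8%.

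Windows that were called at Bud with no interaction gave 75.5% earlier and 74.7% later calls at 24 hpf, so most of the agreement in sign at 24 hpf was also present outside the interaction windows. In edgeR on the counts, which uses no G1 reference, the difference at 24 hpf was called in 62.3% of all windows, 31.4% with omf201 earlier and 31% with omf201 later. In that test 65.8% and 78.0% of the appearing windows were called in the Bud direction, omf201 earlier and later, against 61.3% and 59.5% of the windows called at Bud with no interaction. The 2 sets were not matched for the size of the Bud difference. Its median on z-scores was 0.771 and -0.921 in the appearing windows, against 0.631 and -0.635 in those with no interaction. In edgeR its median was 0.101 and -0.148 in log2 units in the appearing windows, against 0.106 and -0.098. On that scale only the appearing windows with omf201 later had the larger Bud difference. The lost windows were divided at 24 hpf. Where omf201 had been later at Shield, 38.3% were called earlier and 22.9% later in omf201 at 24 hpf, and where it had been earlier, 35.7% were called later and 26.5% earlier.

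The whole-embryo libraries collected before the mid-blastula transition (preMBT, 2 to 2.5 hpf, 3 of each genotype) called a difference in 12.7% of all windows, 6.47% earlier and 6.27% later in omf201. In windows lost at Bud after an earlier omf201 level at Shield, 31.4% were called earlier in omf201 at preMBT, with a median difference of 0.756. In those lost after a later level, 31.8% were called later, with a median of -0.618. These values share a G1 reference per genotype with the Shield values. With 1 G1 reference for both genotypes the preMBT medians were 0.167 and -0.173, and the Shield medians of the same windows were 0.529 and -0.530. In edgeR on the counts, without a G1 reference, the preMBT medians were 0.0058 and -0.0045 in log2 units. The Shield medians in edgeR were 0.051 and -0.047. For the shrinking windows the preMBT median was 1.75 and -1.44 on the deposited z-scores and -0.0334 and -0.116 with the common reference, so the preMBT difference there depended on the reference.

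The amplitude of the profiles, measured as the SD across windows of log2 smoothed ratios, differed between the genotypes at both stages. It was 0.101, 0.0929, 0.103 and 0.101 in Bud omf201 samples, against 0.158, 0.163, 0.159 and 0.141 in Bud WT samples. It was 0.0835, 0.0861, 0.0762 and 0.0835 in Shield omf201 samples, against 0.123, 0.117, 0.119 and 0.118 in Shield WT samples. The genotypes did not overlap at either stage, and the omf201 amplitude was 0.639 of WT at Bud and 0.689 of WT at Shield. The difference of differences was -0.0189, with p = 0.504 in a two-sided exact permutation test of genotype labels within each stage (4900 relabellings). This test also spreads the shared genotype difference over its relabellings, so it is a weak test of a change between stages. The z-score sets every library to the same amplitude, so the interaction windows describe where timing moved relative to the rest of the genome and not how steep the profile was.

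The named runs were the 4 longest of each sign and the 2 longest of each sign in each class, 25 in all, 12 higher and 13 lower. In 22 of them the omf201 step from Shield to Bud was larger than the WT step on z-scores, and in 19 on the deposited log2 ratios. The genotypes did not overlap in 15 runs at Bud and in 19 at Shield, and the stages did not overlap in 22 runs in omf201 and in 10 in WT. Over single windows the samples did not overlap in 38.6% for the genotypes at Bud, 28.5% for the genotypes at Shield, 47.4% for the omf201 stages and 45.8% for the WT stages. The runs were chosen by the interaction, so these counts describe them and are not evidence for it. Coordinates are as the files give them, on GRCz11.

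The longest run lay near the low-coordinate end of chromosome 22, at chr22:1170000-3770001, and had the effect appear at Bud. Its mean z-score was 0.237, -0.249, 0.319 and 0.159 in Bud omf201 samples, against 1.3, 1.24, 1.36 and 1.47 in Bud WT samples. The Shield values were 1.36, 1.64, 1.85 and 1.95 in omf201, against 1.53, 1.58, 1.21 and 1.38 in WT. WT embryos kept this 2600 kb stretch early at both stages, the Shield genotypes overlapped, and omf201 left the early level at Bud. The interaction was -1.50 ± 0.206 (SE, n = 4 per group). At 24 hpf the level was -0.799 ± 0.148 in omf201 and 0.656 ± 0.404 in WT (SD, n = 4 each).

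The runs at chr5:1390000-2970001 and chr2:51610000-53310001 also had omf201 below WT at Bud and overlapping genotypes at Shield, from levels that were below 0 in WT at both stages. At chr5:1390000-2970001 the z-score was -1.21, -0.792, -1.10 and -1.47 in Bud omf201 samples, against -0.107, -0.162, -0.158 and -0.260 in Bud WT samples. Shield samples had -0.485, -0.0542, -0.128 and 0.193 in omf201, against -0.492, -0.221, -0.342 and -0.349 in WT. The genotypes were apart at Bud alone, and the interaction was -1.20 ± 0.208. At chr2:51610000-53310001 the interaction was -1.11 ± 0.175, with -1.02 ± 0.137 in Bud omf201 and -0.228 ± 0.0709 in Bud WT, and -0.265 ± 0.278 in Shield omf201 and -0.584 ± 0.146 in Shield WT (SD, n = 4 each).

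On chromosome 18 the effect appeared in the opposite direction. At chr18:32160000-34050001 the z-score was -0.664, -0.757, -0.930 and -0.849 in Bud omf201 samples, against -1.63, -1.61, -1.63 and -1.71 in Bud WT samples. At Shield it was -1.10, -1.31, -1.33 and -1.09 in omf201, against -0.825, -0.911, -1.0 and -1.06 in WT. WT embryos became later between the stages, omf201 embryos became earlier, and the order of the genotypes turned round with no overlap at either stage. The interaction was 1.10 ± 0.103, and 74.8% of the windows of the run had the effect appear. A neighbouring run at chr18:27360000-28920001 had an interaction of 1.32 ± 0.162, with -0.489 ± 0.211 in Bud omf201 and -1.51 ± 0.166 in Bud WT, and -1.21 ± 0.113 in Shield omf201 and -0.906 ± 0.142 in Shield WT. In both runs the WT level was the latest of the 4 groups at Bud.

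**Figure D2:**
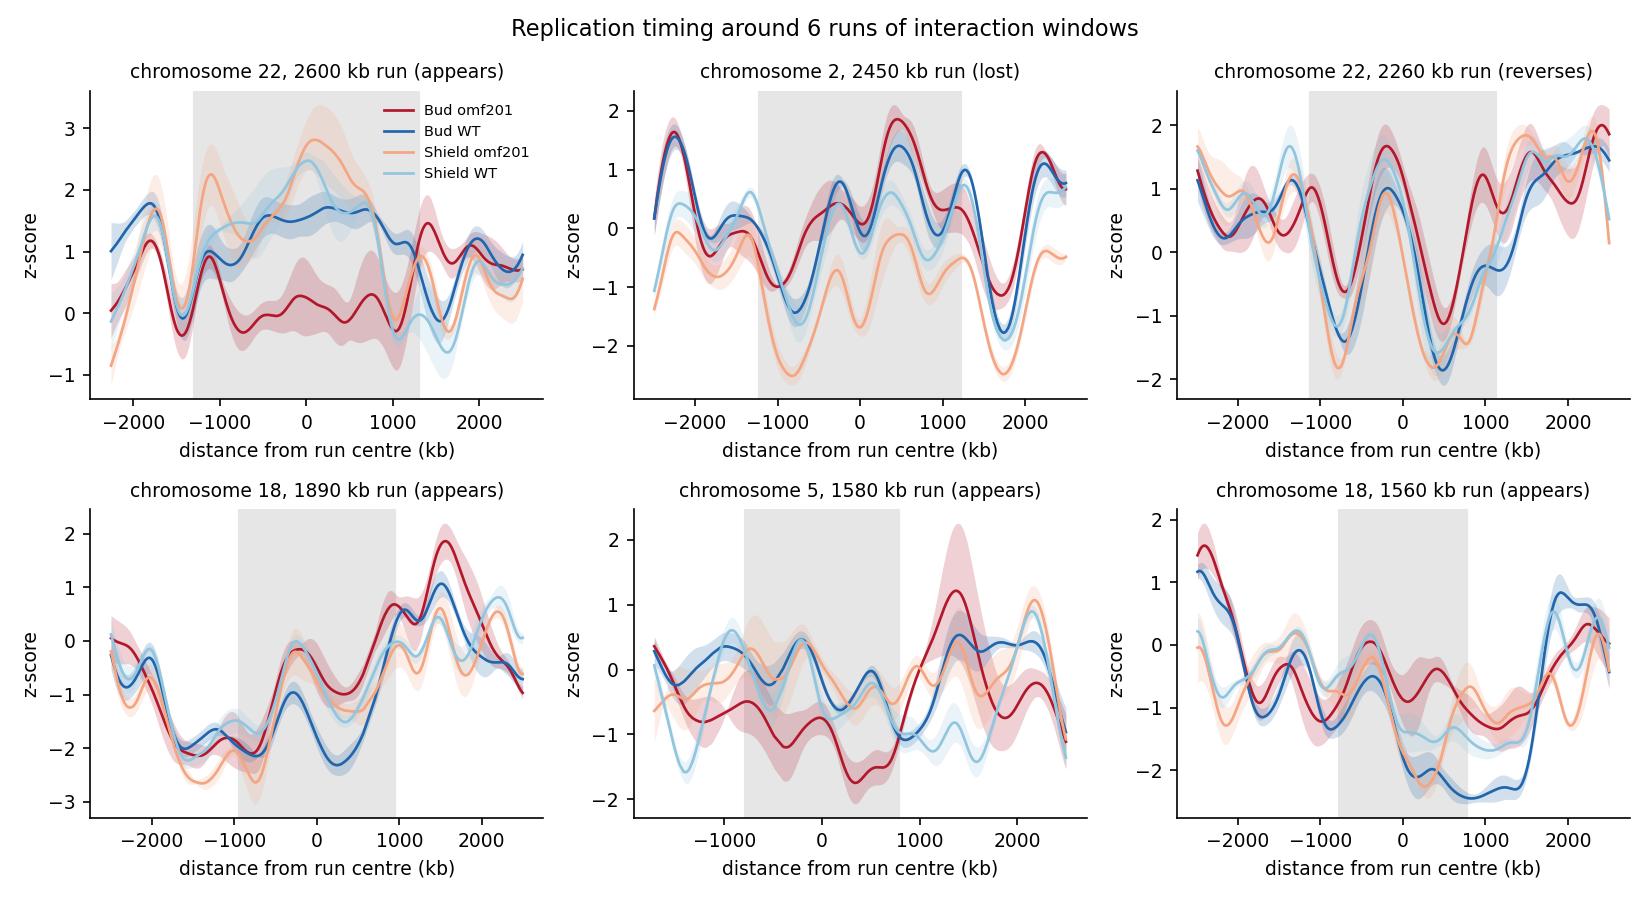
Mean z-score of the 4 samples of each group (lines, bands 1 SD) against the distance in kb from the centre of 6 named runs, with the run shaded. In the 2600 kb run on chromosome 22 the Bud omf201 line lies near 0 while the other 3 groups stay above 1 over most of the run, and in the 2450 kb run on chromosome 2 the Shield omf201 line lies below the others.

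The lost class was the most frequent over 2 long runs on chromosome 2, at 46.8% and 77.8% of their windows. On the deposited z-scores the group that stood apart there was Shield omf201. At chr2:6190000-8640001 the z-score was 0.398, 0.548, 0.547 and 0.166 in Bud omf201 samples, against 0.229, 0.150, 0.109 and 0.0299 in Bud WT samples. In Shield embryos it was -1.08, -1.28, -1.06 and -1.17 in omf201, against -0.164, -0.341, -0.296 and -0.226 in WT. The genotypes overlapped at Bud, through the lowest omf201 sample alone, and not at Shield, and the interaction was 1.18 ± 0.118. At 24 hpf 45.9% of the windows of this run were called earlier in omf201, against 37.8% of all windows.

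The next run, chr2:8900000-10780001, had 0.530, 0.757, 0.665 and 0.475 in Bud omf201, against 0.434, 0.683, 0.277 and 0.420 in Bud WT. At Shield it had -0.690, -0.930, -0.690 and -0.699 in omf201, against 0.447, 0.0358, 0.133 and 0.157 in WT. The Bud samples overlapped and the Shield samples did not, and the interaction was 1.10 ± 0.150. At preMBT, this run had a level of -1.77 ± 0.341 in omf201 and -0.334 ± 0.128 in WT on the deposited z-scores (SD, n = 3 each). Its preMBT level with 1 G1 reference for both genotypes is not given here. Over all windows lost after a later omf201 level at Shield, the preMBT median difference was -0.618 on these z-scores and -0.173 with that reference. The log2 G1 copy level of omf201 minus WT at Bud was 0.08 in both of these runs, and a higher G1 reference lowers the ratio of that genotype at every stage. With the common G1 reference the interactions of these runs were 1.11 and 1.05. The reference of a genotype enters both stages and largely cancels from the interaction. The Shield and Bud differences of these runs with that reference, on which the lost class rests, are not given here. Over all windows lost after a later omf201 level, their medians with that reference were -0.530 at Shield and 0.317 at Bud.

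The reversing class was the most frequent over 2 runs on chromosome 22 and over runs on chromosomes 3 and 19. It held 53.0% and 45.3% of the windows of the chromosome 22 runs, 51.4% on chromosome 3 and 42.7% on chromosome 19. At chr22:12990000-15250001 the z-score was 0.143, 0.409, 0.379 and 0.455 in Bud omf201 samples, against -0.419, -0.407, -0.718 and -0.424 in Bud WT samples. The Shield values were -0.684, -0.764, -0.858 and -0.787 in omf201, against -0.0775, -0.614, -0.209 and -0.255 in WT. Bud omf201 samples were all above and Shield omf201 samples all below the WT samples of their stage, and the interaction was 1.32 ± 0.158. At 24 hpf this run was at -0.119 ± 0.0817 in omf201 and -0.825 ± 0.125 in WT. At chr22:18620000-19960001 the interaction was 1.13 ± 0.187.

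At chr3:24050000-25560001 the reversal ran the other way. The z-score was 0.115, 0.0827, 0.0288 and 0.489 in Bud omf201 samples, against 0.857, 0.644, 0.831 and 0.561 in Bud WT samples. At Shield it was 1.86, 1.78, 1.75 and 1.42 in omf201, against 1.29, 1.00, 0.813 and 1.03 in WT. The omf201 samples were the earliest of all at Shield and the latest at Bud, and the interaction was -1.21 ± 0.187. At chr19:47120000-48449771, at the high-coordinate end of that chromosome, the interaction was -1.23 ± 0.179, with 0.167 ± 0.312 in Bud omf201 and 0.704 ± 0.107 in Bud WT, and 0.975 ± 0.0972 in Shield omf201 and 0.285 ± 0.0993 in Shield WT. Here the log2 G1 level of omf201 minus WT at Bud was -0.11, and with the common G1 reference the interaction was -1.04. The reference largely cancels from the interaction. The differences of this run at each stage with that reference, on which its reversal rests, are not given here. Over all windows that reverse in this direction, the median differences with that reference were -0.926 at Bud and 0.452 at Shield.

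**Figure D3:**
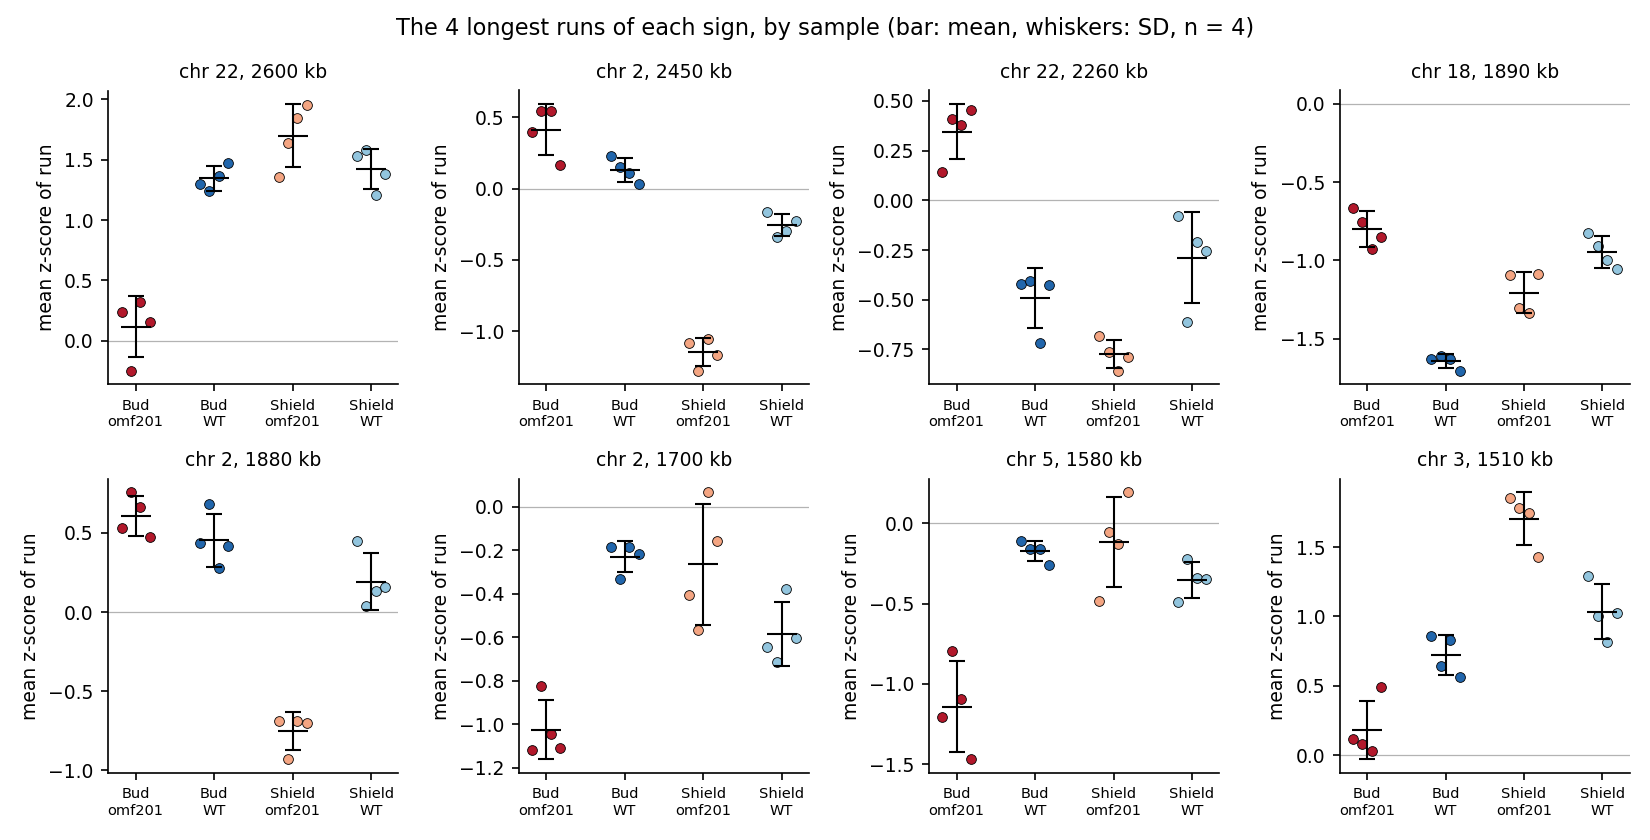
Mean z-score of each sample (points, n = 4 per group) in the 4 longest higher and the 4 longest lower runs, with the group mean (bar) and SD (whiskers). Panels differ in the scale of the y axis, and the Bud omf201 points of the 2600 kb run on chromosome 22 lie at -0.249 to 0.319, below all 12 other samples.

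The 2 longest growing runs of each sign were 470 to 720 kb. The median growing run was 410 kb where the interaction was higher and 250 kb where it was lower, against 330 and 340 kb over all runs of those signs. At chr25:9260000-9960001 the z-score was 0.237, 0.122, 0.746 and 0.408 in Bud omf201 samples, against -1.29, -1.37, -1.38 and -1.12 in Bud WT samples. Shield samples had 0.148, -0.121, 0.0203 and -0.543 in omf201, against -0.966, -0.947, -0.812 and -0.964 in WT. The genotypes were apart at both stages, and the gap was 1.67 at Bud and 0.798 at Shield. At chr1:42230000-42950001 the gap was 1.31 at Bud and 0.486 at Shield, and at 24 hpf the run was at 1.29 ± 0.102 in omf201 and -0.601 ± 0.0804 in WT.

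In the opposite direction, the gap at chr1:34550000-35030001 was -1.65 at Bud and -0.776 at Shield. At chr5:5040000-5510001 it was -1.35 at Bud and -0.490 at Shield, where the Shield genotypes overlapped. That run is 1 of 3 named runs in which WT moved by more than omf201, with a WT step of 0.863 and an omf201 step of 0.00815.

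The lost class was also the most frequent over a run on chromosome 18 and a run on chromosome 3, at 60.9% and 61% of their windows. At chr18:49590000-50550001 the interaction was -1.40 ± 0.227, with an omf201 minus WT difference of -0.335 at Bud and 1.07 at Shield. The genotypes of this run did not overlap at Shield or at Bud, where omf201 was the later one. The Bud gap was narrow, with the highest omf201 sample at -1.37 and the lowest WT sample at -1.36. At preMBT this run stood at 2.80 ± 0.282 in omf201 and 1.12 ± 0.115 in WT (SD, n = 3 each). On the deposited z-scores omf201 was thus the earlier genotype at both whole-embryo stages. Over all windows lost after an earlier omf201 level at Shield, the preMBT median was 0.756 on these z-scores and 0.167 with the common G1 reference. The preMBT level of this run with that reference is not given here. At chr3:21990000-23060001 the interaction was -0.768 ± 0.164.

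The other 8 named runs were those in which windows that shrink, or that had no genotype call at either stage, were the most frequent class, at 49.2% to 100% of their windows. The largest genotype difference of Bud G1 copy level among the named runs was at chr4:42690000-43260001, where the log2 level of omf201 minus WT was -0.23. At 24 hpf it was 0.25 at chr19:27530000-27730001. The run at chr4:42690000-43260001 also had the widest spread, with an interaction of -1.53 ± 0.629. Over the 25 named runs the size of the log2 G1 difference at Bud ranged from 0.000699 to 0.226 with a median of 0.0373, while the size of the interaction of the log2 ratios ranged from 0.0482 to 0.194 with a median of 0.103. With 1 G1 reference for both genotypes, 28161 of the 30619 interaction windows were called again, all with the same sign. The G1 reference of a genotype enters its values at both stages and largely cancels from the interaction. This count could therefore hardly differ, and an effect of G1 copy level was not tested by it. In edgeR on the unsmoothed counts with no G1 reference, the mean interaction had the same sign as the z-score in all 25 named runs. In that test 0% to 41.0% of their windows were called, against 3.66% of all windows. The runs were chosen by the interaction in the same libraries, so this agreement is not independent of the choice.

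Interaction calls were found on every chromosome, from 16.2% of the windows of chromosome 9 to 36.7% of those of chromosome 22. Chromosome 22 had 22.5% higher and 14.3% lower calls. Chromosome 8 had 5.00% higher and 15.9% lower calls. Chromosomes 3, 5 and 20 were also weighted to lower calls, with 9.78% higher and 24.0% lower on chromosome 3, 8.83% and 21.1% on chromosome 5, and 8.30% and 20.9% on chromosome 20. Chromosomes 17, 18 and 21 were among those weighted to higher calls, with 17.5% higher and 7.60% lower on chromosome 17, 18.5% and 8.29% on chromosome 18 and 20.1% and 7.74% on chromosome 21.

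The mean z-score of a chromosome was also compared between the groups with limma, with adjustment over the 25 chromosomes, a test added after the window calls were known. The interaction was called for 10 chromosomes, and the genotype difference for 12 at Bud and 9 at Shield. On chromosome 3 the interaction was -0.193 ± 0.0278 (SE, adjusted p = 4.43e-05), with an omf201 minus WT difference of -0.0452 at Bud and 0.148 at Shield. On chromosome 20 it was -0.151 ± 0.0332 (adjusted p = 0.00213), with -0.195 at Bud and -0.0446 at Shield. On chromosome 18 it was 0.174 ± 0.0239 (adjusted p = 4.43e-05), with 0.110 at Bud and -0.0640 at Shield. Chromosomes 1, 5, 7 and 8 were the other called lower ones and chromosomes 9, 15 and 17 the other called higher ones.

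Chromosome 21 had the highest interaction of its mean, 0.206 ± 0.125, which did not pass the test (adjusted p = 0.176). Its mean z-score was 0.0833, -0.101, 0.506 and -0.0402 in Bud omf201 samples, against 0.0583, 0.0894, 0.0979 and 0.0494 in Bud WT samples. Bud omf201 replicate 3 was the high sample. Without it the interaction of the mean was 0.0745, and 14.8% of the windows were called higher and 10.1% lower.

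The long arm of chromosome 4 is a heterochromatic and repeat-rich region. Of its 1790 windows from 28 Mb on, 8.83% were called higher and 14.6% lower, a share close to that of the whole genome. Its mean z-score was -0.691 ± 0.125 in Bud omf201 and -0.457 ± 0.0934 in Bud WT, and -0.0624 ± 0.216 in Shield omf201 and 0.0155 ± 0.197 in Shield WT (SD, n = 4 each).

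**Figure D4:**
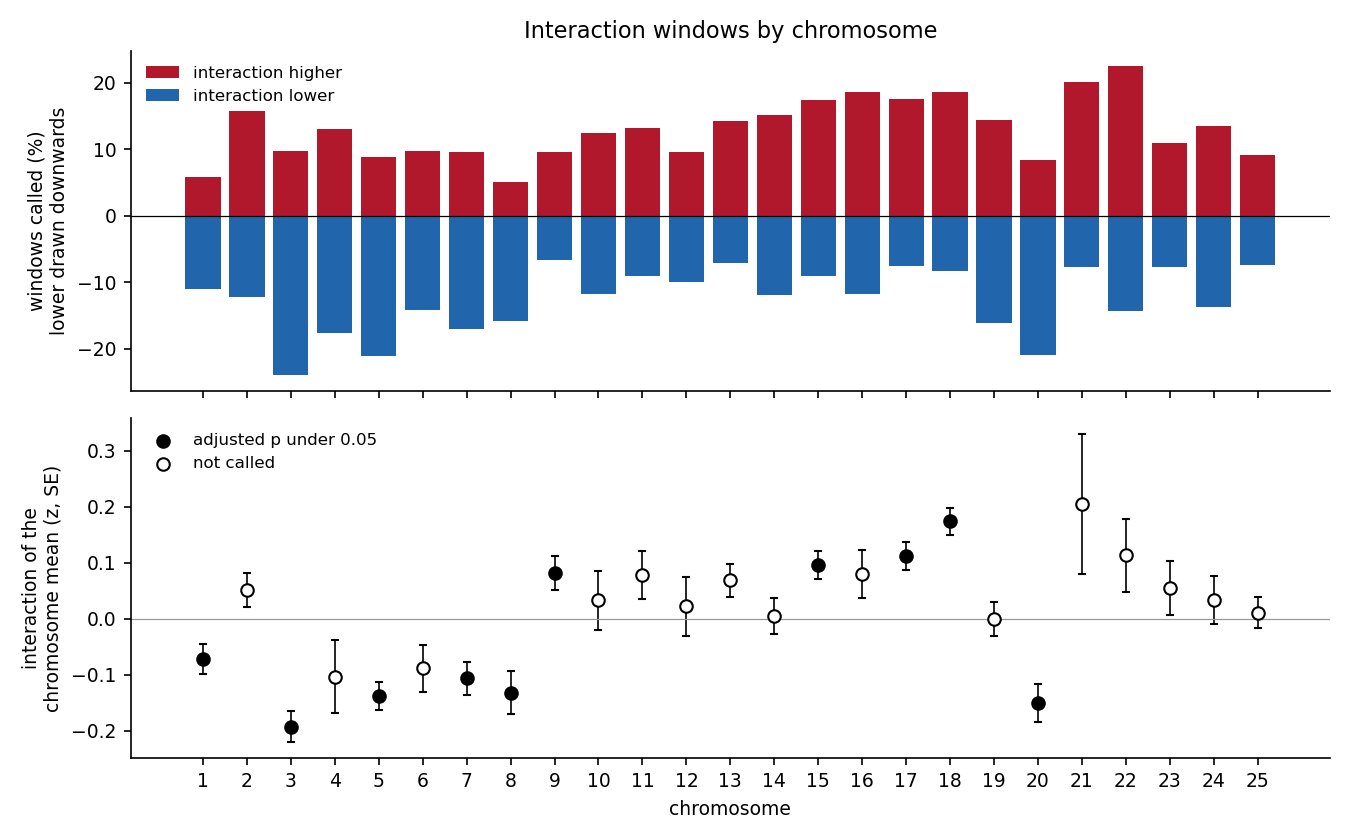
Top, percentage of the windows of each chromosome with a higher interaction (upward bars) and a lower interaction (downward bars). Bottom, interaction of the mean z-score of each chromosome with its SE, filled where the adjusted p was under 0.05, with chromosome 3 lowest at -0.193 and chromosome 18 the highest filled point at 0.174.

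The interaction was lower near chromosome ends, a pattern that was noticed in these data and then measured in the same samples, so that its p-values describe these samples and are not independent evidence. In the outermost 1 Mb, 35.5% of the windows had a lower interaction and 2.11% a higher one, and between 1 and 3 Mb the shares were 28.3% and 3.49%. Between 3 and 10 Mb they were 14.7% and 11.2%, and farther from the ends 9.64% and 14.5%. The outer 3 Mb held 9.47% of all windows, 22.3% of the lower calls and 2.33% of the higher calls.

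The mean z-score of the outer 3 Mb was -0.196, -0.222, -0.0838 and -0.240 in Bud omf201 samples, against 0.160, 0.104, 0.126 and 0.139 in Bud WT samples. In Shield embryos it was 0.0965, 0.174, 0.184 and 0.406 in omf201, against 0.0352, 0.0659, 0.116 and 0.126 in WT. Every Bud omf201 sample was below 0 and every other sample was above it. The omf201 minus WT difference was -0.318 at Bud (two-sided exact permutation p = 0.0286, the smallest that 4 against 4 samples can give) and 0.129 at Shield (exact p = 0.0857). The step from Shield to Bud was -0.401 in omf201 (exact p = 0.0286) and 0.0466 in WT (exact p = 0.143).

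The interaction at the ends was -0.447, with p = 0.00122 in the exact permutation of genotype labels within each stage. It lay between -0.487 and -0.384 when any 1 of the 16 samples was left out, and was -0.428 with the common G1 reference (exact p = 0.0118), where the Shield difference was 0.0279. On deposited log2 ratios the interaction at the ends was -0.044 and the Bud difference -0.033, and after centring each library on its median they were -0.029 and -0.016. After that centring the Bud WT mean was -0.0023 and the WT step -0.0066, so the split of the samples at 0 did not hold there. By chromosome, the mean interaction was below 0 at 44 of 50 ends, with a median of -0.504. It was lowest at the low-coordinate end of chromosome 22, at -1.21, and highest at the low-coordinate end of chromosome 10, at 0.529. The other 5 ends above 0 were the low-coordinate ends of chromosomes 9, 12, 14, 16 and 23.

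**Figure D5:**
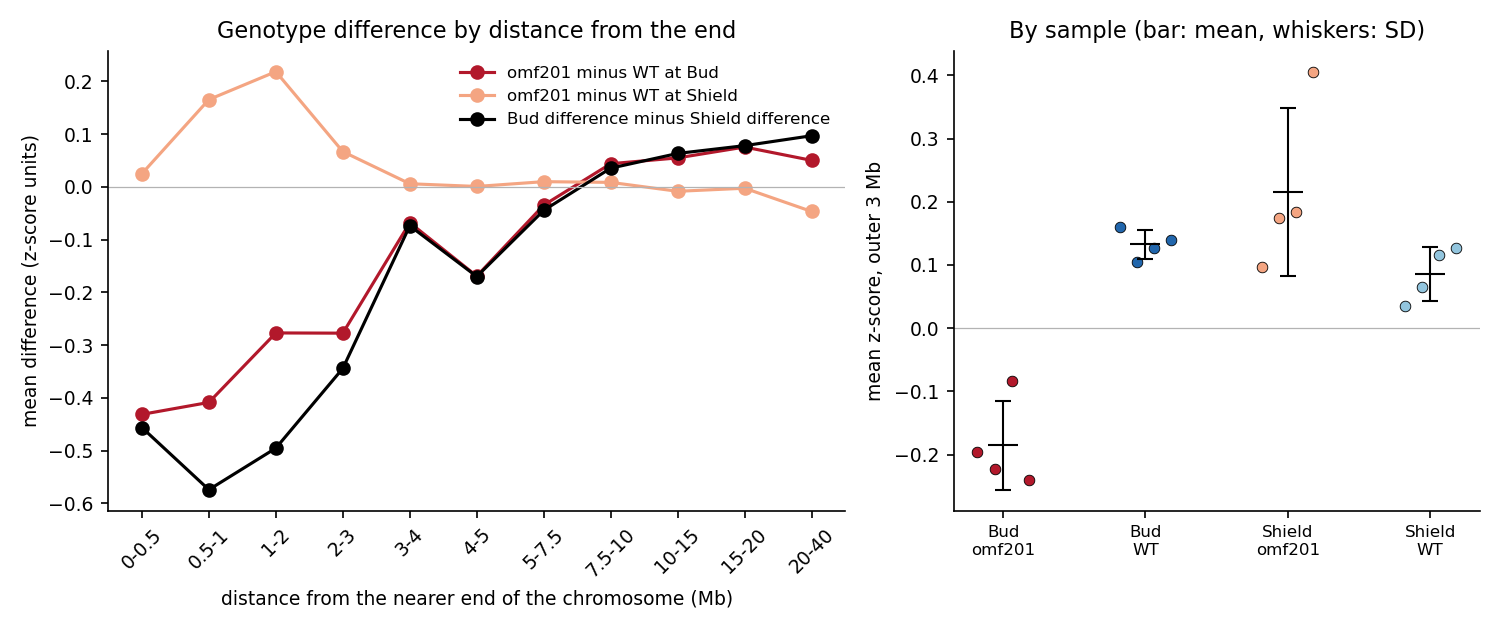
Left, mean genotype difference omf201 minus WT at Bud and at Shield and the interaction, in z-score units, by distance in Mb from the nearer chromosome end. Right, mean z-score of the outer 3 Mb in each sample (points) with the group mean and SD, where the 4 Bud omf201 samples lie between -0.240 and -0.0838 and all other samples above 0.

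The interaction also varied with the timing that WT embryos have at 24 hpf. With windows ranked by the 24 hpf WT z-score and split into 5 equal bins, 15.8% of the windows in the latest bin had a higher and 5.79% a lower interaction. In the middle bin 9.65% were higher and 15.6% lower, in the bin above it 10.7% and 18.3%, and in the earliest bin 14.7% and 14.9%. Higher calls were thus most frequent in the latest sequence and lower calls in the bin next to the earliest.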

How the data were processed

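Genomic DNA of zebrafish embryos was sequenced, and 19 libraries of 4 groups entered the interaction. Per the submitters' processing notes the reads were processed with fastp, BWA and Picard on GRCz11, and per the series' design text with RepliTimer v1.0.11. The deposited counts are whole reads per window of usually 60 kb with centres 10 kb apart. The deposited ratio values divide a library's mean-scaled counts by the median of 8 mean-scaled G1 libraries of its genotype (Bud and 24 hpf). The deposited signal is that ratio after spline smoothing, the deposited log2 values are its log2, and the z-score, a unitless score deposited by the authors, standardises the smoothed ratio within the library. Recomputing each step from the counts matched the deposited values within 1.85e-05. Of 120082 count windows, 23 have no profile.

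Z-scores of 16 samples were fitted with limma 3.58.1 in R 4.3.3, 1 mean per group, and p-values adjusted by the Benjamini-Hochberg method over 120059 windows. Calls needed an adjusted p under 0.05. Classes and runs are counts over these calls, with runs broken at gaps over 200 kb. Counts were also tested by edgeR 4.0.16 (quasi-likelihood, TMM). On simulated data the limma fit recovered 2%, 24%, 78% and 92% of windows given an interaction of 0.5, 1, 1.5 and 2 z-score units. The simulation changed 50 windows per size out of 120059 and drew noise independently in each window. In the real data 25.5% of windows were called, so the adjusted threshold was less strict there. These recoveries therefore do not describe the real calls. Single values per sample were compared by exact permutation. Python 3.11.15, numpy 2.4.6, scipy 1.17.1, pandas 2.3.3 and matplotlib 3.10.9 were used.

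Named runs followed the rule stated with them. The groups, runs and end distances were chosen with earlier results of these data known. No annotation of GRCz11 was used here, so gene content, the lists of gene loci and the *rif1* allele were not analysed. Nothing used here says whether the replicates came from separate pools, so p-values measure the spread between these samples.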

Additional observations from a re-analysis of the deposited data

Results flagged for a closer look

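The genotype difference changed between the stages in 30619 windows, by the test of the interaction itself. In 208 groups of 4 values, 1 sample stood apart from the other 3 by Dixon's criterion in 11 groups, and chance gives about 1 in 20.

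In Bud omf201, 1 sample was at -0.476 at chr19:27530000-27730001 with the others at -1.12 to -1.06, and 1 had a mean of 0.151 on chromosome 3 with the others at 0.0625 to 0.0731. In Bud WT, 1 sample was at -0.718 at chr22:12990000-15250001 with the others at -0.424 to -0.407, 1 was at -0.0306 at chr22:18620000-19960001 with the others at 0.162 to 0.198, and 1 had a mean of 0.0332 on chromosome 4 with the others at -0.0144 to -0.0119. In Shield omf201, 1 sample was at -0.930 at chr2:8900000-10780001 with the others at -0.699 to -0.690, 1 was at -0.164 at chr1:34550000-35030001 with the others at -0.290 to -0.275, and 1 was at -1.64 at chr9:24820000-25050001 with the others at -1.35 to -1.32. In Shield WT, 1 sample was at -0.345 at chr1:42230000-42950001 with the others at -0.759 to -0.695, 1 was at -0.812 at chr25:9260000-9960001 with the others at -0.966 to -0.947, and 1 was at -0.622 at chr9:24820000-25050001 with the others at -0.180 to -0.174.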

How the results depend on the processing

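The interaction was called in 14051 windows at an adjusted p under 0.01, in 4396 with edgeR on counts (3508 of them shared with the z-score calls, 11.5% of those and 79.8% of the edgeR calls) and in 21168 with 1 fit of all stages. With edgeR on counts summed in 1-Mb bins, an alternative added after seeing the data, it was called in 384 of 1356 bins (28.3%). On deposited log2 ratios 29766 windows were called, of which 20153 were shared, and Shield differences were called in 51186. Replicate numbers did not pair the samples: same-numbered samples of the 2 genotypes deviated from their group means with correlations of -0.0587 to 0.104, and 2 of 6 pairs correlated best with their own number. With the replicate number as a block, on the 12 samples that have a partner, 10810 windows were called, against 11163 in the same samples without the block. The appearing class had 2982 windows with edgeR. With edgeR on 1-Mb bins there were 92 appearing, 152 growing, 16 reversing, 2 shrinking and 96 lost bins, and 26 with neither call. The growing class had 8127 (log2), 2027 (common G1 reference) and 484 (edgeR), and the reversing class 1362 (log2) and 274 (edgeR). The shrinking class had 102 (log2), 433 (common reference) and 6 (edgeR), the lost class 2917 (log2) and 636 (edgeR), and the class with neither call 449 (log2), 1181 (common reference) and 14 (edgeR). The cause of these changes was not tested. Leaving out 1 sample at a time gave 25078 to 32920 interaction windows, 50149 to 59211 Bud and 23020 to 35635 Shield differences. It gave 15279 to 19474 appearing, 416 to 1206 growing (442 and 507 without the averaged Shield WT samples 1 with 2 and 3 with 4), 2008 to 3518 reversing, 132 to 295 shrinking, 4190 to 6750 lost and 1381 to 1865 windows with neither call. Of 425 alternative z-score values of named runs, 3 moved more than 1 SD from the main value, all with the common G1 reference. The other 422 stayed within 1 SD, but leaving out 1 of 4 samples cannot move a value further than that. Only the values with the common G1 reference, 1 for each of the 25 named runs, could have moved further. The reference largely cancels from an interaction, so these values were not free to move far either. The 50 values on log2 scales kept their sign. In the simulation, with the spread of these samples but few changed windows and independent noise, an interaction of 0.5 was found in 2% of windows. This does not measure the recovery in the real data.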
